A study of Homo sapiens with 8 samples.

Results

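Accessible chromatin was described at 67 genes, 44 that encode collagen chains and 23 that encode matrix metalloproteinases (MMPs), out of 19974 protein-coding genes on chromosomes 1 to 22 and X. A gene was included when its symbol was COL, digits, A and digits, or MMP and digits with an optional letter. The measurements were ATAC-seq peaks, regions where a transposase cut open chromatin, in H1975 and HCC44, established human lung cancer cell lines that the labels give as genotype WT. Each line was exposed for 96 h either to the solvent DMSO or to ACBI1, labelled at 1 mM, a compound that triggers degradation of SMARCA2, SMARCA4 and PBRM1, subunits of the SWI/SNF chromatin remodelling complexes. Each of the 4 groups had 2 replicates, and the labels do not say whether these came from separate cultures. Each line is a single model, and levels of the degraded proteins were not analysed here.

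Collagens are triple-helical proteins of the extracellular matrix. The fibrillar chains build the fibres of connective tissue, the type IV chains form the sheet of the basement membrane on which epithelial cells rest, and other types link, anchor or decorate these structures. MMPs are zinc-dependent proteases that cut collagens and other matrix proteins, some secreted and some held in the cell membrane, and both groups take part in the matrix remodelling around carcinomas.

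For each gene, peaks were counted in a window that covered the gene and 50 kb on either side, and peaks within 1 kb of either gene end, called boundary peaks, were counted apart, since promoters lie at a gene end. The DMSO lists were 41027 to 50347 peaks long and the ACBI1 lists 22133 to 27682. They give no read numbers, so depth is unknown, a missing peak is no measurement of closed chromatin, and a site open in fewer cells cannot be told apart from a site less open in every cell. Boundary peaks stood in both DMSO samples at 5 of 5 epithelial markers (EPCAM, CDH1, KRT8, KRT18 and KRT19) in both lines and at 0 of 3 endothelial markers in either. For fibroblast markers the count was 1 of 5 in both lines, and for leukocyte markers it was 2 of 3 in H1975 and 1 of 3 in HCC44. Of all genes, 59.6% in H1975 and 61% in HCC44 held one in both DMSO samples. The lung lineage gene NKX2-1 held a boundary peak in all 4 H1975 samples and in 1 of 4 HCC44 samples, and SFTPC, the other marker of that list, held one in all 8 samples.

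Fewer peaks were listed around the collagen and MMP genes with ACBI1 in both lines, about as much fewer as in the rest of the genome. In H1975 the windows together held 297 and 279 peaks in the DMSO samples against 193 and 154 in the ACBI1 samples. In HCC44 these sums were 361 and 345 against 201 and 194. Neither line's groups overlapped. The log2 change was -0.74 in H1975 (SD between replicates 0.17, n = 2 in each group) and -0.84 in HCC44 (SD 0.04, n = 2 in each group), and outside these windows it was -0.77 and -0.97. The windows took 0.68% to 0.78% of each list. When every list was cut to its 22133 strongest peaks, which removes the difference in list length by construction, the log2 changes turned to 0.15 in H1975 and 0.35 in HCC44, so the direction rests on the number of peaks called. Under that setting 6 windows were lower (11.3% of all genes) and 9 higher (24%) in H1975, and 6 lower (12.9%) and 24 higher (30.7%) in HCC44.

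In what follows, counts are given as replicate 1 and replicate 2 with DMSO against replicate 1 and replicate 2 with ACBI1. Gene by gene, 42 of the 67 windows held fewer peaks in both ACBI1 than in both DMSO samples of H1975, where 43.4% of all genes did. In HCC44 it was 44 of 67, where 55.3% of all genes did, and 33 were lower in both lines, against 34.1% of all genes. Of the windows with a peak in both DMSO samples, 42 of 59 were lower in H1975 and 44 of 58 in HCC44, beside 50.6% and 64.1% of all such genes. Collagen genes are long, with a median of 145 kb against 24.2 kb for all genes, so their windows had more room for peaks. The part of length in these shares was not tested. The MMP genes have a median of 12.7 kb, and 16 of 23 were lower in H1975 and 15 of 23 in HCC44, but 9 of them share overlapping windows on chromosome 11. The 67 windows form 52 separate loci, so some peaks were counted for more than 1 gene. None of the 67 was higher with ACBI1 in H1975 (1.45% of all genes were) and only MMP23B was in HCC44 (1.79%). In an exact permutation test per gene over both lines, two-sided, 33 of the 67 genes reached p = 0.0556, the lowest value possible with 36 arrangements, as did 34.2% of all genes. The smallest adjusted p was 0.162, and 0 genes passed 0.05, which this design cannot reach. Within 1 line the smallest p is 0.333.

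**Figure D1:**
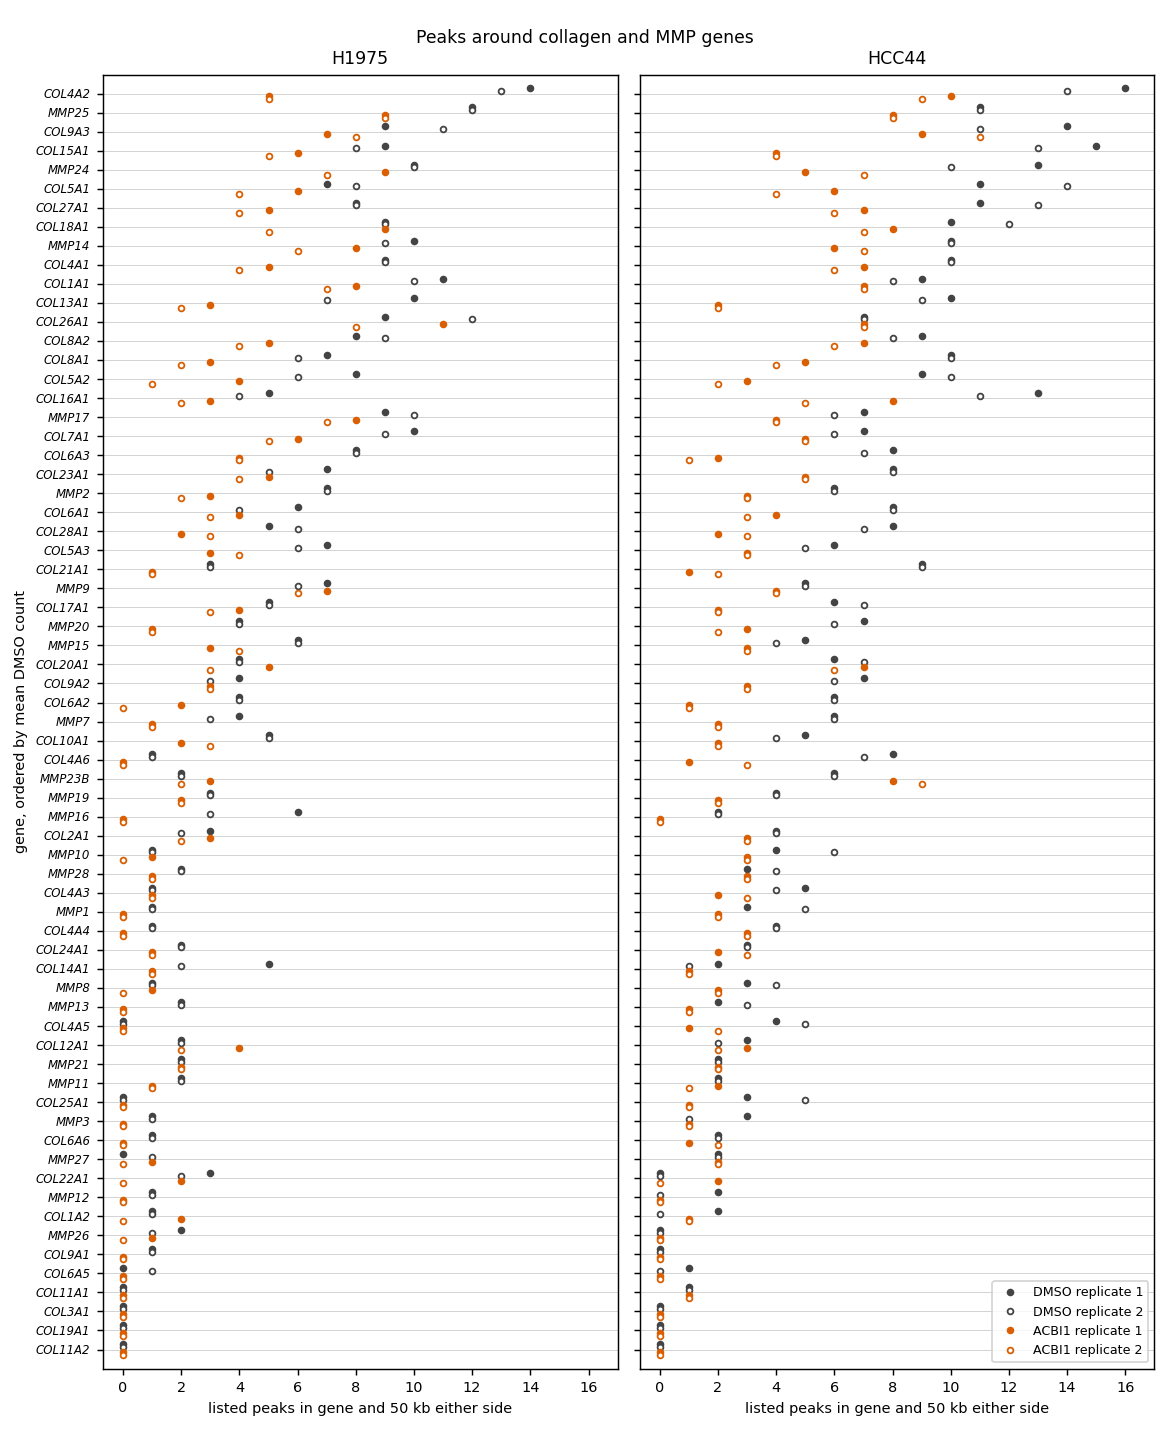
Peaks in the window of each of the 67 genes (horizontal axis, number of listed peaks) in H1975 (left) and HCC44 (right); grey points are the DMSO and orange points the ACBI1 replicates. The orange points lie to the left of the grey points in 42 genes of H1975 and 44 of HCC44; with equal numbers of peaks per list this holds for 6 genes in each line.

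Among the fibrillar collagens, which form the striated fibres of tendon, skin and stroma, 6 of 11 windows were lower with ACBI1 in each line, beside 43.4% of all genes in H1975 and 55.3% in HCC44. COL1A1 (chr17:50184101-50201631, GRCh38), the main chain of type I collagen, held 11 and 10 window peaks in the DMSO samples and 8 and 7 in the ACBI1 samples of H1975, and 9 and 8 against 7 and 7 in HCC44. Its boundary peak was present in all 8 samples, at a percentile rank of at least 59.4 by -log10 q within each list, where a higher rank is a stronger peak. COL1A2, which encodes the partner chain, had 1 and 1 window peaks against 2 and 0 in H1975, and 2 and 0 against 1 and 1 in HCC44. These groups overlap. COL3A1, the main chain of type III collagen, had no window peak in any sample.

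COL5A1 and COL5A2 encode chains of type V collagen, which starts the assembly of type I fibres. COL5A1 (chr9:134641803-134844843) held 7 and 8 window peaks against 6 and 4 in H1975, and 11 and 14 against 6 and 4 in HCC44. Its boundary was called in all 8 samples, but the HCC44 DMSO peaks stood at the threshold of the list, at ranks of 0.902 and 1.53, and both were absent with a minimum -log10 q of 15. The peak of HCC44 DMSO replicate 1, chr9:134642799-134643077, did not overlap those of the HCC44 ACBI1 samples. COL5A2 (chr2:189031898-189441111) held 8 and 6 against 4 and 1 in H1975 and 9 and 10 against 3 and 2 in HCC44. It kept a peak at its upper end throughout, but that end is also a boundary of WDR75. COL27A1, a fibrillar chain of cartilage, went from 8 and 8 to 5 and 4 in H1975 and from 11 and 13 to 7 and 6 in HCC44.

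Among the basement membrane and network collagens, 7 of 9 windows were lower in H1975 (43.4% of all genes) and 9 of 9 in HCC44 (55.3%). With equal numbers of peaks per list, COL4A4 alone of these 9 was lower in H1975, and in HCC44 COL10A1 was lower and COL8A1 higher. The type IV genes are arranged head to head, so that each promoter region serves the 2 genes of a pair. The windows of a pair overlap and are not independent of each other. Between the facing gene limits lie 126 bp for COL4A1 and COL4A2, 135 bp for COL4A4 and COL4A3 and 379 bp for COL4A6 and COL4A5. The COL4A4 start used for its promoter, at chr2:227164205, lies inside its gene limit. Each of these pairs had 1 shared boundary peak in all 4 HCC44 samples and none in any H1975 sample. With a minimum -log10 q of 20, only the COL4A1 and COL4A2 peak stayed in all 4 HCC44 samples. That of COL4A4 and COL4A3 was then in neither HCC44 ACBI1 sample, and that of COL4A6 and COL4A5 was missing from ACBI1 replicate 1. With equal numbers of peaks per list, COL4A1 and COL4A2 were the only type IV genes with a boundary peak in both HCC44 and neither H1975 DMSO sample. The shared HCC44 region of COL4A1 and COL4A2 was chr13:110306449-110308757. Its rank by -log10 q in the HCC44 lists was 65.3 and 59.7 with DMSO and 62.2 and 65.7 with ACBI1, so it lay above the middle of each list. The nearest H1975 peak, in DMSO replicate 1 alone, lay within COL4A1 between -2.82 and -2.60 kb on the scale of the map of the locus. At COL4A3 the ranks were 42.8 and 61 with DMSO and 7.92 and 9.37 with ACBI1.

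Promoter sequences are shown for COL4A1, whose region is rich in the dinucleotide CG, and for COL4A5, which shares the HCC44 pattern with few CGs. Both are 300 bases of RefSeq sequence on GRCh38.p14, from 250 bases before to 50 after the start, 5′ to 3′ on the strand of the gene, with every CG in capitals. COL4A1 is on the minus strand at chr13:110307108-110307407 and holds 45 CGs, and COL4A5 is on the plus strand at chrX:108439588-108439887 and holds 8.
COL4A1: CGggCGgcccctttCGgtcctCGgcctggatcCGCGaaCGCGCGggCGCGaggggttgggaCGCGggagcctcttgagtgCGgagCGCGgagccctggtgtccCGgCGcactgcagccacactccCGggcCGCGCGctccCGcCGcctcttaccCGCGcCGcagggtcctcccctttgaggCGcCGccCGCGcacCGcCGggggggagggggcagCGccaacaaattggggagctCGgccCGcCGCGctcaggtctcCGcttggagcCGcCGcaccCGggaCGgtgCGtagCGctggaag
COL4A5: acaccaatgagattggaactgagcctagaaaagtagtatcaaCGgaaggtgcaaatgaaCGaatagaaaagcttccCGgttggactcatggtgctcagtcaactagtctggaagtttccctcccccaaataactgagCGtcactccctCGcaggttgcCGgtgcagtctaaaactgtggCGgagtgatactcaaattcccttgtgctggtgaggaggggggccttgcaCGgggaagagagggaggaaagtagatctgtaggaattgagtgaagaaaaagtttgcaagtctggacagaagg

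Away from the shared start of COL4A1 and COL4A2, fewer peaks were listed with ACBI1 in both lines. COL4A2 (chr13:110307284-110513209) held 14 and 13 window peaks against 5 and 5 in H1975, a change of -8.5 in the mean, and the largest of the 67 genes in that line. In HCC44 it held 16 and 14 against 10 and 9. COL4A1 (chr13:110148963-110307157), whose window overlaps that of COL4A2, held 9 and 9 against 5 and 4 in H1975 and 10 and 10 against 7 and 6 in HCC44. In all 4 comparisons both ACBI1 samples lay below both DMSO samples. Over the joint stretch of 464 kb the numbers were 20 and 19 against 8 and 8 in H1975 and 22 and 20 against 13 and 12 in HCC44.

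**Figure D2:**
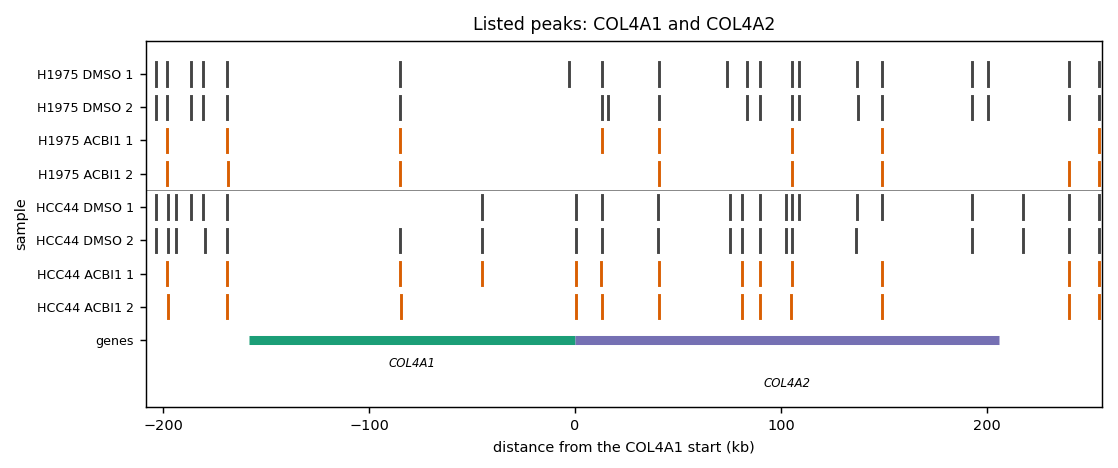
Listed peaks (vertical bars, not to width) in the 8 samples around COL4A1 and COL4A2, by distance from the COL4A1 start in kb; grey is DMSO, orange is ACBI1, and the lower track shows the genes. A bar at 0 kb appears in the 4 HCC44 samples alone, and the 464 kb shown hold fewer bars in every ACBI1 sample than in the DMSO samples of its line.

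COL4A6 on the X chromosome (chrX:108155614-108439458) had 1 and 1 window peaks against 0 and 0 in H1975, and 8 and 7 against 1 and 3 in HCC44. COL8A1 and COL8A2 encode type VIII collagen, a short-chain network former of vessels and cornea. COL8A1 (chr3:99638594-99799217) held 7 and 6 against 3 and 2 in H1975 and 10 and 10 against 5 and 4 in HCC44. Its boundary peak was listed in all 4 H1975 samples and in both HCC44 DMSO samples but in neither HCC44 ACBI1 sample. The HCC44 peak was no marginal call, with ranks of 48.4 and 46.8 in the DMSO lists, and in H1975 the ACBI1 peaks ranked at 8.01 and 3.36. COL8A2 held 8 and 9 against 5 and 4 in H1975 and 9 and 8 against 7 and 6 in HCC44, both without overlap.

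The fibril-associated collagens, which sit on the surface of fibres, were lower in 5 of 10 windows in H1975 (43.4% of all genes) and 3 of 10 in HCC44 (55.3%). COL12A1, type XII collagen, had few peaks, and their number did not fall: its window held 2 and 2 against 4 and 2 in H1975, and 3 and 2 against 3 and 2 in HCC44. Its boundary peak was in all 8 samples. That peak ranked at 65.4 and 75.2 against 8.68 and 31.4 in H1975, and at 76.2 and 57.2 against 41.5 and 38.6 in HCC44. With a minimum -log10 q of 20 it was missing from H1975 ACBI1 replicate 1. COL16A1 (chr1:31652263-31704017), type XVI collagen, went from 5 and 4 to 3 and 2 in H1975 and from 13 and 11 to 8 and 5 in HCC44. COL21A1 (chr6:56056590-56394128), type XXI collagen, had 3 and 3 against 1 and 1 in H1975 and 9 and 9 against 1 and 2 in HCC44, where 5 of its 7 regions seen in both DMSO samples were in neither ACBI1 sample. COL9A2 and COL9A3 encode chains of type IX collagen of cartilage. COL9A2 had 4 and 3 against 3 and 3 in H1975, which overlap, and 7 and 6 against 3 and 3 in HCC44, where another boundary peak was present with DMSO alone (2 and 2 against 1 and 1). That peak lay at the end of COL9A2 opposite its start. COL9A3 was lower in H1975, with 9 and 11 against 7 and 8, and overlapped between groups in HCC44, with 14 and 11 against 9 and 11. Its boundary peak, absent from H1975, was missing from HCC44 ACBI1 replicate 1 alone.

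The COL12A1 promoter, open in all 8 samples, lies on the minus strand at chr6:75206004-75206303 and is printed as above, with its 29 CGs in capitals.
COL12A1: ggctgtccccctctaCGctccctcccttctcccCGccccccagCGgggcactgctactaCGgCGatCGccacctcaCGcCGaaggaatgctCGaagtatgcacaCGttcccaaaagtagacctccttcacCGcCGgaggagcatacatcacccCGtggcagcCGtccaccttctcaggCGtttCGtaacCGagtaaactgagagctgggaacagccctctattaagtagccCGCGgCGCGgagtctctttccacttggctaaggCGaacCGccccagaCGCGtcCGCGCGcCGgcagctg

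Of the beaded filament and anchoring fibril genes, 4 of 6 were lower in each line (43.4% and 55.3% of all genes). COL6A1, COL6A2 and COL6A3 encode the chains of type VI collagen, the microfibrils around cells. COL6A3 (chr2:237324018-237414164) held 8 and 8 window peaks against 4 and 4 in H1975 and 8 and 7 against 2 and 1 in HCC44. COL6A1 had 6 and 4 against 4 and 3 in H1975, which overlap, and 8 and 8 against 4 and 3 in HCC44. COL6A2 had 4 and 4 against 2 and 0 in H1975 and 6 and 6 against 1 and 1 in HCC44. At the ends of COL6A2 the 2 H1975 DMSO samples held 2 peaks each, ACBI1 replicate 1 held 1 and replicate 2, the shortest list, held 0. HCC44 held 1 boundary peak there in every sample. COL7A1 (chr3:48564073-48595329), the anchoring fibril of the skin, had 10 and 9 against 6 and 5 in H1975 and 7 and 6 against 5 and 5 in HCC44. It was the only one of the 67 with fewer boundary peaks in both lines, 2 and 2 against 1 and 1 in each (1.23% of all genes were lower in both lines). The peak that was missing, chr3:48564061-48564501 in H1975, lies at its lower end, which is also a boundary of PFKFB4 and UCN2, while its start kept a peak in all 8 samples. The start peak ranked at 85.7 and 84.8 against 25.9 and 22.5 in H1975, and at 70.1 and 65.9 against 20.4 and 24.8 in HCC44. With a minimum -log10 q of 20 it was in neither HCC44 ACBI1 sample.

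The transmembrane collagens were lower in 2 of 4 windows in H1975 (43.4% of all genes) and 4 of 4 in HCC44 (55.3%). COL13A1 (chr10:69801906-69959144), a surface collagen of cell adhesion sites, had 10 and 7 window peaks against 3 and 2 in H1975, and 10 and 9 against 2 and 2 in HCC44. A boundary peak was listed in all 8 samples, but in HCC44 ACBI1 replicate 1 it did not reach the promoter. With a minimum -log10 q of 20, HCC44 held a boundary peak in DMSO replicate 1 alone. Away from the gene ends COL13A1 had 9 and 6 against 2 and 1 in H1975, and 8 and 8 against 1 and 1 in HCC44. Of its regions seen in both DMSO samples, 5 of 7 in H1975 and 7 of 9 in HCC44 were in neither ACBI1 sample. COL17A1, a collagen of the hemidesmosome that ties epithelial cells to the basement membrane, had 5 and 5 against 4 and 3 in H1975 and 6 and 7 against 2 and 2 in HCC44. COL23A1, another surface collagen, had 7 and 5 against 5 and 4 in H1975, which overlap, and 8 and 8 against 5 and 5 in HCC44. COL25A1, expressed in neurons, had no window peak in H1975 and 3 and 5 against 1 and 1 in HCC44.

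The boundary peaks of COL23A1 and COL25A1 were in both HCC44 DMSO samples and in neither ACBI1 sample, but they stood near the threshold of the list. The COL25A1 peak lay at the start of the gene. The COL23A1 peak lay at the end opposite the start, and no sample held a peak at the COL23A1 promoter. COL25A1 ranked at 2.18 and 0.0621 and COL23A1 at 1.89 and 2.55 by -log10 q. The COL25A1 promoter, on the minus strand at chr4:109302609-109302908, is rich in CG, with 38 in capitals.
COL25A1: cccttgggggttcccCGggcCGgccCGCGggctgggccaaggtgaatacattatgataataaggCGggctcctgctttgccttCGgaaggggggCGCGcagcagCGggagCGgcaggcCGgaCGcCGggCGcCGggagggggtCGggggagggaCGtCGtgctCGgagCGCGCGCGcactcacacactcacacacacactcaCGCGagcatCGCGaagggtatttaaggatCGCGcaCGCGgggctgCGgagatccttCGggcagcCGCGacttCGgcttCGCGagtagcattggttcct

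The multiplexins carry endostatin-like ends and lie in basement membranes. COL15A1 (chr9:98943907-99070787) showed the largest change of the 67 genes in HCC44, -10 peaks in the mean, from 15 and 13 to 4 and 4. In H1975 it had 9 and 8 against 6 and 5. No boundary peak was listed for COL15A1 in any sample, so these peaks lay within the gene and its flanks. COL18A1, the source of endostatin, had 9 and 9 against 9 and 5 in H1975, which overlap, and 10 and 12 against 8 and 7 in HCC44. Its start kept a peak in all 8 samples, and a peak at its upper end was in both H1975 DMSO samples and ACBI1 replicate 1, not in ACBI1 replicate 2 and in no HCC44 sample.

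The secreted MMPs lie for the most part in a cluster on chromosome 11, where 9 genes share overlapping windows over 535 kb and are not independent of each other. That stretch held 9 and 9 peaks against 3 and 2 in H1975, and 17 and 17 against 8 and 7 in HCC44. MMP7 (chr11:102520508-102530747), matrilysin, an epithelial protease, had 4 and 3 against 1 and 1 in H1975 and 6 and 6 against 2 and 2 in HCC44. MMP1 (chr11:102789919-102798160), interstitial collagenase, had 1 and 1 against 0 and 0 in H1975 and 3 and 5 against 2 and 2 in HCC44. MMP13 (chr11:102942995-102955732), collagenase-3, had 2 and 2 against 0 and 0 in H1975 and 2 and 3 against 1 and 1 in HCC44. All 3 were lower without overlap in both lines. MMP3 (stromelysin-1) had 1 and 1 against 0 and 0 in H1975 but 3 and 1 against 1 and 1 in HCC44, and MMP10 (stromelysin-2) had 1 and 1 against 1 and 0 in H1975 and 4 and 6 against 3 and 3 in HCC44.

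**Figure D3:**
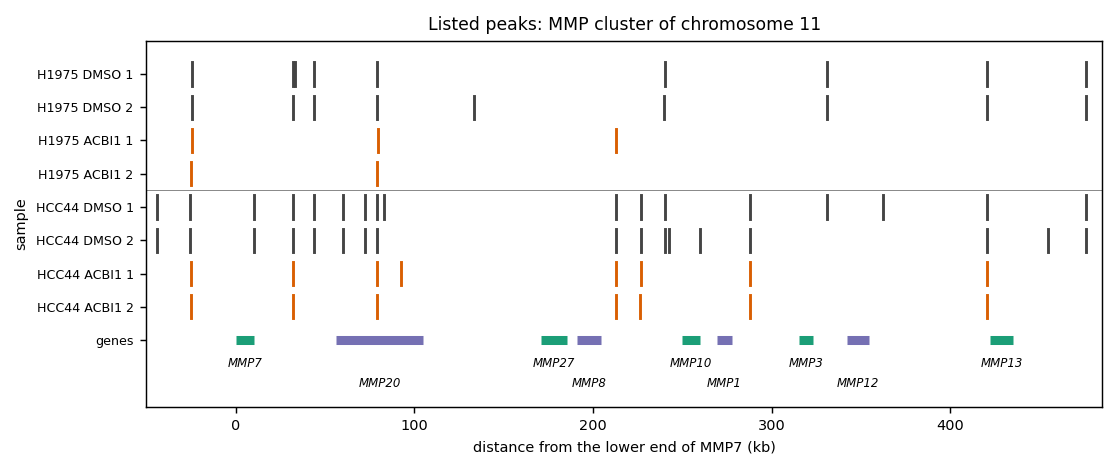
Listed peaks (vertical bars, not to width) in the 8 samples over the chromosome 11 cluster, by distance from the lower end of MMP7 in kb; grey is DMSO, orange is ACBI1, and the lower track shows the 9 genes. Each ACBI1 row of H1975 holds 3 or 2 bars and each of HCC44 holds 8 or 7, against 9 and 17 in the DMSO rows.

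The MMP7 boundary peak, chr11:102530567-102530921, was in both HCC44 DMSO samples, at ranks of 19.7 and 25.7, and in no other sample. A peak at the MMP10 start was in HCC44 DMSO replicate 2 alone. Both promoters hold the letters TGANTCA, where N is any base, which the transcription factor AP-1 binds, at position -67 from the start, and both hold TATAAA, at -30 in MMP7 and -31 in MMP10. The match is a description of these letters and not of binding. The promoters are shown with TGANTCA in capitals, both on the minus strand, MMP7 at chr11:102530698-102530997 and MMP10 at chr11:102780579-102780878.
MMP7: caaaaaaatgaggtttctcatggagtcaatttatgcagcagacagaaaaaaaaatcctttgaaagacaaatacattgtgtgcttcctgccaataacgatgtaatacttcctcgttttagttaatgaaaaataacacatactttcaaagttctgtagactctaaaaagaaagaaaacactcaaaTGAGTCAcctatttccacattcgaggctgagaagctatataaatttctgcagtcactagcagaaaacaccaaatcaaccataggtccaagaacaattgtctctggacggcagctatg
MMP10: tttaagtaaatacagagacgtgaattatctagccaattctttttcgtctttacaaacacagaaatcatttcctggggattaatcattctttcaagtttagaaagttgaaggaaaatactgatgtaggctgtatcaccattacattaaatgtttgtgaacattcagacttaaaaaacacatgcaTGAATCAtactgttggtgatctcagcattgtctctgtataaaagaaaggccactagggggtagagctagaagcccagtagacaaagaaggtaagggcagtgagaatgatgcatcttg

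The gelatinases cut denatured collagen and type IV collagen. MMP2 (chr16:55478830-55506691) had 7 and 7 against 3 and 2 in H1975 and 6 and 6 against 3 and 3 in HCC44. MMP9 (chr20:46008908-46016561) had 7 and 6 against 7 and 6 in H1975 and 5 and 5 against 4 and 4 in HCC44. MMP2 had a boundary peak in all 4 HCC44 samples and in no H1975 sample, and MMP9 had one in HCC44 DMSO replicate 2 alone. The MMP2 peak ranked low, at 22.4 and 7.96 against 15.9 and 1.95. With a minimum -log10 q of 15 it was missing from replicate 2 of both HCC44 groups, and with 20 from every sample.

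All 6 membrane-type MMPs were lower in both lines, beside 34.1% of all genes. With equal numbers of peaks per list, MMP14 was lower in both lines and MMP16 in H1975, while MMP17 and MMP25 were higher in both lines and MMP15 in HCC44. MMP14 (chr14:22836585-22847758), which activates MMP2 at the cell surface, had 10 and 9 window peaks against 8 and 6 in H1975 and 10 and 10 against 6 and 7 in HCC44. Its start peak was in 7 of 8 samples and missing from H1975 ACBI1 replicate 2. MMP25, expressed in leukocytes, had 12 and 12 against 9 and 9 in H1975 and 11 and 11 against 8 and 8 in HCC44. A peak at its lower end was in both HCC44 DMSO samples and ACBI1 replicate 2 and in no H1975 sample, and a peak within 1 kb of its upper end, also a boundary of LOC124900372, reached that limit in H1975 DMSO replicate 2 alone, although its merged region held a peak in all 4 H1975 samples. MMP16 had 6 and 3 against 0 and 0 in H1975 and 2 and 2 against 0 and 0 in HCC44, and its HCC44 boundary peaks were near the threshold, at ranks of 0.346 and 0.258. MMP19, a protease outside these classes, had 3 and 3 against 2 and 2 in H1975 and 4 and 4 against 2 and 2 in HCC44. Its boundary peak, at ranks of 20.3 and 28.7, was in both HCC44 DMSO samples and no other sample. MMP23B had 2 and 2 against 3 and 2 in H1975 and 6 and 6 against 8 and 9 in HCC44, and its boundary is shared with MIB2.

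The members together held 18 and 20 boundary peaks against 19 and 13 in H1975, which overlap. In HCC44 they held 37 and 36 against 26 and 29, without overlap. The log2 change was -0.27 in H1975 (SD between replicates 0.28, n = 2 in each group) and -0.41 in HCC44 (SD 0.08, n = 2 in each group), against -0.78 and -0.90 elsewhere in the windows. This order turned in HCC44 with a minimum fold enrichment of 5, where the change was -2.23 for boundary peaks and -1.66 for all window peaks. The H1975 change was 0.00 without ACBI1 replicate 2 and -0.55 without ACBI1 replicate 1, so 1 library decides it. With equal numbers of peaks per list both changes reversed, to 0.53 and 0.88, with 2 genes lower (0.646% of all genes) and 4 higher (5.75%) in H1975, and 0 lower (1.13%) and 11 higher (8.86%) in HCC44.

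Fewer boundary peaks with ACBI1 were listed at 2 of 67 genes in H1975 (COL7A1 and COL6A2), beside 2.44% of all genes. In HCC44 they were listed at 8 (COL9A2, COL7A1, COL8A1, COL25A1, COL23A1, MMP16, MMP7 and MMP19), beside 5.35%. Of these 8, COL9A2, COL7A1 and COL23A1 lacked a peak at the end opposite the start. More boundary peaks were listed at 0 genes in H1975 (0.591%) and, in HCC44, at COL26A1 alone, with 1 and 0 against 2 and 2 (0.866%). The COL26A1 peak found with ACBI1 alone also lay at the end opposite the start. Of the 15 members with a boundary peak in both H1975 DMSO samples (59.6% of all genes had one), 13 kept it in both ACBI1 samples, against 95.2% of all such genes. Of the 33 in HCC44 (61% of all genes), 25 kept it, against 91.9%. In neither ACBI1 sample was it listed for 0 of 15 in H1975 (2.52% of all such genes) and for 6 of 33 in HCC44 (5.53%). Of those 6, COL25A1, COL23A1 and MMP16 ranked under 3 in both DMSO lists, while COL8A1, MMP7 and MMP19 ranked at 19.7 or above. With a minimum -log10 q of 20, the MMP7 and MMP19 peaks were in HCC44 DMSO replicate 2 alone. In all 8 samples a boundary peak stood at 12 members, against 52.8% of all genes, among them COL5A2 and MMP24 at ends shared with WDR75 and EIF6. With a minimum -log10 q of 20, of these only COL5A2, MMP24, MMP15 and COL1A1 held one in all 8 samples.

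**Figure D4:**
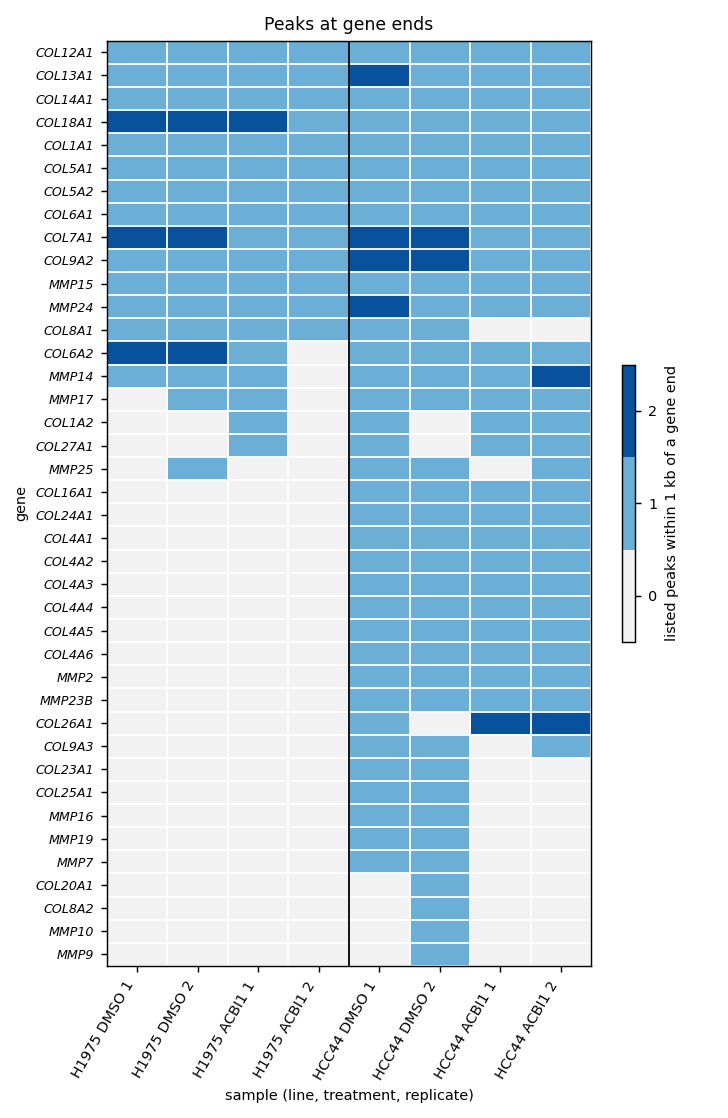
Number of listed peaks within 1 kb of a gene end (colour, 0 to 2) in each of the 8 samples (columns) for every member with at least 1 such peak (rows, ordered by how many H1975 and then HCC44 samples hold one). The upper 12 rows are filled in all samples, and a block of rows in the middle is filled in HCC44 and empty in H1975.

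Regions were formed by merging the peaks of the 4 samples of a line, and a region was lost when it was in both DMSO and in neither ACBI1 sample. Of the regions in member windows, 99 of 263 (37.6%) were lost in H1975 and 145 of 309 (46.9%) in HCC44, beside 37.2% and 49.3% outside. Away from any gene boundary it was 49.2% and 60.8%, beside 50.2% and 63%. At member boundaries it was 1 of 21 (4.76%) in H1975, beside 4.22% at other gene boundaries, and 8 of 35 (22.9%) in HCC44, beside 8.71%. The HCC44 difference rests on few regions, 4 of which (COL25A1, COL23A1, COL9A2 and MMP16) were near the threshold of the list.

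**Figure D5:**
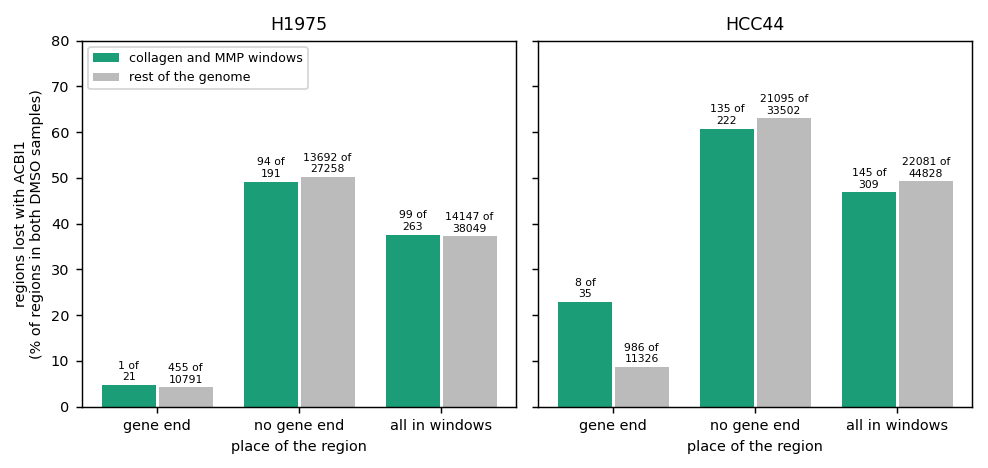
Percentage of regions seen in both DMSO samples that were in neither ACBI1 sample (vertical axis), in collagen and MMP windows (green) and in the rest of the genome (grey), for regions at a gene end, with no gene end, and all together; the numbers above the bars give lost regions of all. The bars of the windows and the genome differ most at gene ends in HCC44, where 8 of 35 regions were lost against 8.71%.

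The strongest lost regions by the authors' fold enrichment in H1975 were chr3:99658929-99659373 in COL8A1, chr11:102564192-102564432 between MMP7 and MMP20, and chr11:102996219-102996669 beyond MMP13. Their fold enrichments with DMSO were 11.9 and 10.4, 10.1 and 11.5, and 9.36 and 12.7. In HCC44 they were chr2:189276276-189276650 in COL5A2, chr20:35199713-35200701 in PROCR near MMP24 and chr6:56101077-56101491 in COL21A1, with 10.1 and 9.34, 9.28 and 8.96, and 9.24 and 7.9. Their mean ranks within the lists by fold were 94.8 to 99.7. Gained regions, in both ACBI1 and neither DMSO sample, numbered 8 of 335 in H1975 (2.39%) and 13 of 432 in HCC44 (3.01%), beside 1.34% and 2.27% of the regions outside. Their ranks by fold were 15.7 to 38.6 for the strongest of H1975 and 38.3 to 74.5 for those of HCC44. The strongest in HCC44 was chr3:130538940-130539436 in COL6A6, a chain of type VI collagen. A gained region in COL17A1 appeared in both lines and overlapped at chr10:104045539-104045893. Another shared one, chr21:45970600-45971032, lay in the COL6A1 window. The gene table gives gene limits without exons, so exons and introns were not told apart.

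With DMSO, boundary peaks at these genes were more numerous in HCC44 than in H1975, with 37 and 36 against 18 and 20, a log2 difference of 0.94 (SD between replicates 0.08, n = 2 in each group), while all window peaks differed by 0.29 and peaks outside by 0.25. At 16 of 67 genes a boundary peak was in both HCC44 and in neither H1975 DMSO sample (3.85% of all genes), and at 0 of 67 in the reverse (2.75%). The 16 are MMP23B, COL16A1, COL24A1, COL4A1 to COL4A6, COL25A1, COL23A1, MMP16, MMP7, MMP19, MMP2 and COL9A3, and the pairs of type IV genes share 3 peaks. With a minimum -log10 q of 20 the number was 10 (3.07% of all genes), among them MMP14 and MMP17, which are not of the 16. With equal numbers of peaks per list it was 5 (2.39%): COL16A1, COL4A1, COL4A2 and, from outside the 16, COL9A2 and MMP14. With a minimum fold enrichment of 5 the lines no longer stood apart: the log2 difference of boundary peaks was 0.00, with 3 genes for HCC44 alone and 3 for H1975 alone. The lines differ in origin as well as in list length, and the smallest p of 2 against 2 samples is 0.333.

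The 2 lines shared regions in these windows about as often as outside them. Of the regions in both H1975 DMSO samples, 204 (78.2%) were also in both HCC44 DMSO samples, which is 66% of those of HCC44. Outside these windows the shares were 76.6% and 64.4%. Of the 204, 56 (27.5%) were lost in both lines, beside 25.1% outside. Among the 10 genes with the largest decrease in each line, COL13A1, COL4A2, COL5A2 and COL6A3 were in both sets. The HCC44 set was cut within a tie at -5.5, ordered by symbol, which left out COL8A1 and MMP24. COL8A1 was in the H1975 set.

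Promoter sequences were found in RefSeq for 44 of the 67 genes, in 56 promoters of 300 bases. A peak overlapped the promoter in both HCC44 and neither H1975 DMSO sample at 11 of the 44 (2.73% of all genes) and in the reverse at 0 (2.73%). In all 8 samples it did at 5, COL7A1, COL12A1, COL27A1, MMP15 and COL18A1 (54.5% of all genes). Of the promoters with a peak in both DMSO samples, 7 of 9 genes in H1975 and 15 of 19 in HCC44 kept one in both ACBI1 samples, beside 96.4% and 94%. Having one in both DMSO samples held for 60.7% and 60.6% of all genes. On both strands, TGANTCA (AP-1) was in 7.14% of member promoters and in 6.15% of all promoters, TATAAA (the TATA box) in 25% and 9.47%, GGGCGG (bound by the SP family) in 51.8% and 56.3%, CCAAT (bound by NF-Y) in 37.5% and 34.6%, and GGAATG (bound by TEAD) in 5.36% and 12.2%. None of these motifs contains another, and GGGCGG holds 1 CG. The median number of CGs was 16 against 21, and it was 29 in promoters with a peak in all 8 samples and 10.5 in those without a peak in any.

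Genes that act on collagens and MMPs were followed as separate lists. Of the 26 collagen-modifying and cross-linking enzymes and chaperones, 14 windows were lower in H1975 and 16 in HCC44, against the 43.4% and 55.3% given above. A boundary peak in both DMSO samples stood at 20 and 23 of them, beside 59.6% and 61% of all genes. PLOD2, a lysyl hydroxylase, had 6 and 7 window peaks against 2 and 2 in H1975 and 6 and 6 against 3 and 3 in HCC44. LOXL2, a cross-linking oxidase, had 12 and 11 against 7 and 6 in H1975 and 11 and 12 against 5 and 6 in HCC44. Of the 5 MMP inhibitors, TIMP2, TIMP4 and RECK were lower in both lines, and RECK, with 8 and 8 against 6 and 6 in H1975 and 8 and 6 against 5 and 4 in HCC44, is a membrane-bound inhibitor. Of the 2 genes of MMP activation, FURIN, which activates MMP proenzymes, was lower in both lines, with 7 and 7 against 4 and 3 in H1975 and 11 and 8 against 3 and 3 in HCC44. BSG, an inducer of MMPs, overlapped, with 8 and 10 against 9 and 7 and 9 and 7 against 9 and 10. Of the 4 collagen receptors outside the integrins, only DDR2, a receptor kinase, was lower in both lines, with 9 and 8 against 4 and 3 and 6 and 6 against 2 and 2, while GP6 was lower in HCC44 alone and DDR1 and LAIR1 had no window peak. Being lower in both lines held for 34.1% of all genes.

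Windows without any peak in all 8 samples were those of COL3A1, COL11A2 and COL19A1 (9.13% of all genes). COL11A2 lies in a stretch, chr6:29752763-33539954, where no list holds a peak although it contains 147 protein-coding genes, among them the collagen receptor gene DDR1. A zero there says nothing of the chromatin of these genes. COL19A1 lies in a stretch of 514955 bp with no peak that holds 2 genes and COL3A1 in one of 309669 bp that holds 1 gene.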

How the data were processed

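ATAC-seq was measured in 8 samples of H1975 and HCC44, 2 per group. Reads were aligned with BWA to hg38, per the submitters' processing notes, and the peak caller and filters are not given in the sources used here. The authors deposited 1 list of 9 columns per sample in the broadPeak layout, so peaks were called per sample. In it the fold enrichment is the authors' ratio of a peak over background, and the authors' p and q values are deposited as -log10 values; the lowest -log10 q was 10 to 10.2. These were used only within a list, to rank or filter, and the deposited score was not used. Gene positions and promoters came from RefSeq tables of GRCh38.p14; no genome sequence was used.

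Peaks overlapping a window by 1 bp were counted per gene and sample. A gene was called lower (higher) in a line when both ACBI1 samples held fewer (more) peaks than both DMSO samples. Rank is the percentile of -log10 q within a list. Tests were exact permutation tests, two-sided, on log2(count + 1), with treatments permuted within a line, on all genes with Benjamini-Hochberg adjustment. The labels do not say that replicates are separate cultures, so p-values measure only the spread between these samples. Members, gene lists and tests were chosen with earlier results of these data known. Genes named with values were the 10 largest decreases in mean window peaks per line, those higher with ACBI1, those with a boundary peak in both DMSO and not both ACBI1 samples, 20 chosen for their roles, and, from other lists, some genes called in both lines. The regions named were the 3 strongest lost and gained per line. Python 3.11.15, numpy 2.4.6, pandas 2.3.3, scipy 1.17.1 and matplotlib 3.10.9 were used, and the functions were tested on simulated data. Alternatives were other thresholds, list lengths, flanks, joining at 1200 bp, 1 replicate fewer, and a block for replicate number; a minimum -log10 q of 15 was added after seeing the data.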

Additional observations from a re-analysis of the deposited data

How the results depend on the processing

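Each of 22 sums, counts and shares was recomputed under the other settings, giving 142 values: 84 stayed within the limits set for a change (the SD between replicates for sums, a factor of 1.5 for counts), 52 moved further and 6 changed sign. For 32 named genes, 380 of 448 values were labelled as the same, 44 lost their call of lower or higher and 24 changed sign. A gene without a call in a line with the full lists was always labelled as the same there. Sign changes at such genes are therefore not among the 24. The cause was not tested, except that equal numbers of peaks per list take away the shorter ACBI1 lists by construction. Depth is unknown and 2 replicates a group limit every comparison.

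With equal numbers, the log2 changes of window peaks were 0.15 in H1975 and 0.35 in HCC44, with 6 and 6 genes lower and 9 and 24 higher. Those of boundary peaks were 0.53 and 0.88, with 0 lower in HCC44 and 4 and 11 higher. A boundary peak was in both DMSO samples at 7 and 11 genes and kept at 5 and 11, and 20.5% and 28.1% of regions were lost. The DMSO difference between lines was -0.03 for window and 0.41 for boundary peaks, with 5 genes for HCC44 alone and 1 for H1975 alone.

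With a minimum -log10 q of 20, the HCC44 changes were -1.10 for window and -0.73 for boundary peaks, with 0 windows higher, 5 boundaries lower and 0 higher, and 52.4% of regions lost. Boundary peaks were kept at 8 genes in H1975 and 12 in HCC44. The line difference was 0.13 for window and 0.64 for boundary peaks, with 10 genes for HCC44 alone and 1 for H1975 alone. With a minimum fold enrichment of 5, the HCC44 changes were -1.66 and -2.23, with 0 windows higher, 5 boundaries lower and 0 higher, and 66.7% lost; 1 boundary was lower in H1975. Boundary peaks were in both DMSO samples at 7 and 7 genes and kept at 4 and 2. The line difference was -0.18 for window and 0.00 for boundary peaks, with 3 genes for HCC44 alone and 3 for H1975 alone.

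With a flank of 25 kb the HCC44 window change was -0.88 with 0 genes higher, and with 100 kb it was -0.79 with 44.6% of regions lost. With boundaries of 5 kb, 8 genes were lower in H1975 and 13 in HCC44, 2 were higher in HCC44, the HCC44 change was -0.57, and in H1975 29 genes held DMSO boundary peaks in both replicates and 24 kept them.

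Without 1 replicate, 74 of 88 values stayed, 13 moved and 1 changed sign. The window change ranged over -0.90 to -0.58 in H1975 and -0.87 to -0.80 in HCC44, genes lower over 42 to 52 and 45 to 50, and genes higher over 0 to 4 and 1 to 2. The boundary change ranged over -0.55 to 0.00 and -0.49 to -0.33, genes lower over 2 to 4 and 8 to 12, and genes higher over 0 to 2 and 1 to 3. In H1975 both extremes of the changes came from leaving out ACBI1 replicate 1 or 2. A boundary peak was in the DMSO samples at 15 to 17 and 33 to 37 genes and kept at 13 to 15 and 25 to 28, and 39.2 to 47.1% and 49.2 to 52.4% of regions were lost. The line difference ranged over 0.25 to 0.34 for window and 0.87 to 1.02 for boundary peaks, with 16 to 20 genes for HCC44 alone.

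Sign changes are listed here only for named genes that had a call in that line with the full lists. COL18A1 in H1975 and MMP3 in HCC44 had no such call. Their mean fell with ACBI1 in the full lists, yet they were higher with equal numbers. With equal numbers, the change in mean window peaks of called genes changed sign in H1975 at COL17A1 (0.5), COL21A1 (0.5), COL27A1 (2.5) and COL5A1 (0.5). In HCC44 it did at COL13A1 (1.0), COL16A1 (0.5), COL18A1 (2.0), COL1A1 (1.5), COL4A6 (0.5), COL5A1 (1.5), COL6A1 (0.5), COL6A3 (0.5), COL7A1 (0.5), COL8A1 (1.5), COL8A2 (1.5), MMP1 (1.0), MMP10 (2.0), MMP2 (1.0), MMP7 (0.5) and MMP9 (3.0). With a minimum fold enrichment of 5 it did in H1975 at COL17A1 (0.5) and COL7A1 (1.0), and with a minimum -log10 q of 20 in HCC44 at MMP23B (-2.0) and MMP9 (0.5). With a minimum -log10 q of 15, chosen after seeing the data, COL8A1 lacked its boundary peak in H1975 ACBI1 replicate 2. MMP7 and MMP19 kept theirs in both HCC44 DMSO samples, while COL24A1, COL4A3 and COL4A4 lacked theirs in both HCC44 ACBI1 samples. With a minimum of 20, neither MMP7 nor MMP19 had a boundary peak in both HCC44 DMSO samples.

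Replicate numbers are shared across groups in the labels only: the correlation of the deviations of same-numbered samples was 0.113 in H1975 and 0.0452 in HCC44 for window peaks. With a replicate block the window changes were -0.74 and -0.84, with 46 and 44 genes lower, and the boundary changes -0.27 and -0.41, with 2 and 8 lower.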
